A study of Sus scrofa with 2 samples.

Results

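The NDUFA genes treated here encode accessory subunits of complex I (NADH:ubiquinone oxidoreductase), the largest enzyme of the mitochondrial respiratory chain. The genes described here were chosen by name. They are the 10 pig genes NDUFA1, NDUFA3, NDUFA5, NDUFA6, NDUFA7, NDUFA9, NDUFA10, NDUFA11, NDUFA12 and NDUFA13. Each was found through the RefSeq accession of its pig protein, given as the protein match of an assembled transcript (unigene). The table used here listed 65535 unigenes, which are not all of the assembly, and 5698 of them could be named this way for 4484 pig genes. Each of the 10 genes was represented by 1 unigene, so no gene had to be chosen among fragments. NDUFA2, NDUFA4, NDUFA8 and NDUFAB1 were not matched by this rule and were not analysed here.

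The RNA came from the longissimus dorsi muscle (LM) of Yorkshire pigs, a lean breed that grows fast, and of Shaziling pigs, a fat-type breed native to China. The animals of both breeds were males of 25 days without a stated treatment, 3 per breed, and those of a breed were full sibs. Reads of the 3 pigs of a breed were given as 1 library, and whether their RNA was pooled or their reads were merged is not stated. The spread between pigs is therefore unknown, no difference given here has a replicate check, and breed and litter cannot be told apart. Breeds follow the sample titles and the column names, although a further field of the sample records gives the breed classes the other way round. Which of them is right was not tested, and under that field each ratio below would be turned, for example to 0.279 for NDUFA11 and 1.33 for NDUFA5.

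Complex I takes electrons from NADH, passes them along a chain of iron-sulfur clusters to ubiquinone and pumps protons across the inner mitochondrial membrane. It has the shape of an L, with a peripheral arm that reaches into the matrix and a membrane arm that holds the proton pumps. Core subunits, some of them encoded by mitochondrial DNA, carry out the catalysis, and accessory subunits, all encoded in the nucleus, surround the core and serve its assembly and stability.

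Levels are given in RPKM, which relates reads to unigene length and library size, so that genes of different length can be compared. A ratio is the Shaziling RPKM over the Yorkshire RPKM. The range in parentheses after it is its exact 95% confidence interval (Clopper-Pearson) from the read numbers, and it covers counting error only. A unigene was called different when the fold change was 2 or more and the false discovery rate, from an exact binomial test on the reads, was 0.05 or less. This test compares 2 libraries and says nothing of the spread within a breed. The library sizes behind the RPKM values were 33949238 reads for Yorkshire and 28305925 reads for Shaziling.

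The 10 NDUFA genes did not differ between the libraries in 1 direction. The ratios were 3.59 for NDUFA11, 2.70 for NDUFA13, 2.69 for NDUFA7, 2.25 for NDUFA3 and 2.01 for NDUFA1, and these 5 genes were called higher in Shaziling. NDUFA9 and NDUFA10 had ratios of 1.46 and 1.26. NDUFA12, NDUFA6 and NDUFA5 had lower levels in Shaziling, with ratios of 0.819, 0.804 and 0.750, and 0 genes were called higher in Yorkshire. For comparison, 24.1% of all unigenes were called higher in Shaziling and 7.08% higher in Yorkshire. Among 1069 pig genes that reached 10 RPKM in 1 or both libraries, as all 10 NDUFA genes did, 35.2% were called higher in Shaziling and 3.27% higher in Yorkshire.

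**Figure D1:**
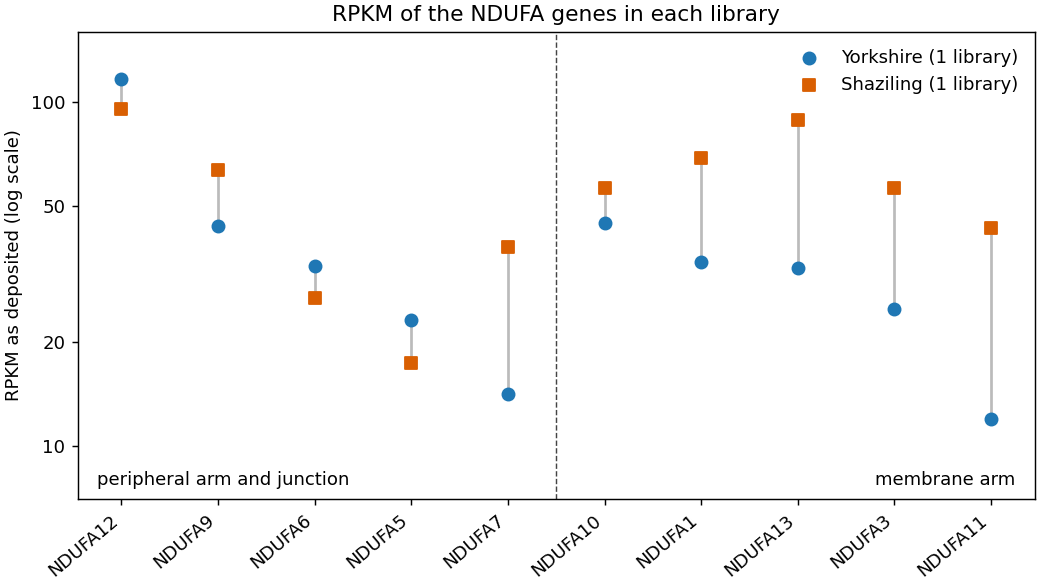
RPKM of each of the 10 NDUFA genes (vertical axis, log scale) in the Yorkshire library (circles) and the Shaziling library (squares), 1 library each, with the genes of the peripheral arm and its junction on the left and those of the membrane arm on the right. NDUFA12, NDUFA6 and NDUFA5 have the Yorkshire point above the Shaziling point, and the 7 other genes have it below, of which NDUFA9 and NDUFA10 change direction under other scalings.

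Each unigene was longer than the coding length of its gene, computed as 3 bases per residue of the matched protein and a stop codon. Whether it holds the whole coding sequence was not tested, since only lengths were compared. NDUFA1 had the smallest protein, with 70 residues, a coding length of 213 bp and a unigene of 405 bp. NDUFA9 had the largest, with 377 residues, a coding length of 1134 bp and a unigene of 1403 bp. NDUFA5 stood out by a unigene of 5817 bp for a protein of 116 residues, so that 5466 bp lay beyond the coding length. For the other 9 genes this excess was between 82 bp (NDUFA13) and 503 bp (NDUFA6). The RPKM, share and ratio of NDUFA5 were computed over all 5817 bp. Whether the part beyond the coding length belongs to this gene was not tested.

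In the peripheral arm, NDUFA12, a subunit related to the assembly factor NDUFAF2, was the most abundant member in both libraries. On its unigene (contig_120, 590 bp), 2338 reads from Yorkshire gave 117 RPKM and 1597 reads from Shaziling gave 95.6 RPKM. The ratio of 0.819 (0.768 to 0.873) was below 1 beyond counting error and short of a call. NDUFA5, which lies beside the subunits that lead electrons to ubiquinone, had 4584 Yorkshire reads (23.2 RPKM) and 2867 Shaziling reads (17.4 RPKM). Its ratio of 0.750 (0.716 to 0.786) was the lowest of the 10. NDUFA6 is a protein of the LYR family that holds an acyl carrier protein on the arm. Its 1010 Yorkshire reads corresponded to 33.4 RPKM and its 677 Shaziling reads to 26.9 RPKM, with a ratio of 0.804 (0.728 to 0.887). NDUFA6 could not be told from NDUFA5 or from NDUFA12 by its ratio, whereas the ratio of NDUFA12 was 1.09 times that of NDUFA5 (1.01 to 1.18).

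NDUFA7, also a subunit of the peripheral arm, differed from these 3. It was covered by 237 reads in Yorkshire (14.1 RPKM) and by 532 reads in Shaziling (38.0 RPKM). Its ratio was 2.69 (2.31 to 3.15), and it was the only gene of the peripheral arm and junction that was called. NDUFA9, a member of the short-chain dehydrogenase family, sits at the junction of both arms. From 2075 reads in Yorkshire and 2519 in Shaziling, it had 43.6 RPKM and 63.4 RPKM. The ratio of 1.46 (1.37 to 1.54) was short of a call and had an interval apart from those of all other members.

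Of the 5 genes of the membrane arm, 4 were called higher in Shaziling. NDUFA11, a protein with several membrane-spanning helices that resembles proteins of the mitochondrial import machinery, had the highest ratio. Its unigene (contig_11637, 723 bp) was covered by 294 reads in Yorkshire (12.0 RPKM) and by 879 reads in Shaziling (43.0 RPKM), a ratio of 3.59 (3.14 to 4.11). NDUFA11 had the lowest level of all members in Yorkshire and was number 7 in Shaziling. Its ratio was 1.33 times that of NDUFA7 (1.08 to 1.64), the nearest in interval, and differed beyond counting error from that of each other member. NDUFA13, known also as GRIM-19, a regulator of cell death, spans the membrane with a single helix. It had 578 Yorkshire reads (32.9 RPKM) and 1301 Shaziling reads (88.9 RPKM), a ratio of 2.70 (2.45 to 2.98). NDUFA13 and NDUFA7, from different arms, could not be told apart by their ratios.

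NDUFA1 and NDUFA3 are small proteins with a membrane-spanning helix. NDUFA1 was found with 471 reads in Yorkshire (34.3 RPKM) and 791 reads in Shaziling (69.0 RPKM). Its ratio of 2.01 (1.79 to 2.26) lay at the fold change that defines a call, and the interval reached below it. NDUFA3 was found with 325 reads in Yorkshire (24.9 RPKM) and 611 in Shaziling (56.2 RPKM), and its ratio of 2.25 had an interval (1.97 to 2.59) that also reached below 2. The ratio of NDUFA3 could not be told from that of NDUFA1 or NDUFA7. NDUFA10, which is related to nucleoside kinases and lies on the matrix face of the membrane arm, was the gene of this arm that was not called. Its 2125 Yorkshire reads gave 44.5 RPKM and its 2239 Shaziling reads 56.3 RPKM, a ratio of 1.26 (1.19 to 1.34).

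Over the membrane arm the median ratio was 2.25, with a range from 1.26 to 3.59, and over the peripheral arm and junction it was 0.819, with a range from 0.750 to 2.69. NDUFA7 and NDUFA9 had ratios within the range of the membrane arm. The arms were not tested against each other, since the genes of an arm are not replicates. Of the other complex I subunits described below, those of the peripheral arm were NDUFS8, NDUFV1, NDUFS6, NDUFV3, NDUFS3 and NDUFS1. Their ratios were 3.83, 3.11, 2.05, 1.94, 1.25 and 0.975 in this order. The median of 0.819 thus holds for the NDUFA genes of that arm and not for all its subunits found.

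Proportions between the members within a library do not depend on how the libraries are scaled. NDUFA12 made up 30.7% of the summed RPKM of the 10 genes in Yorkshire and 17.2% in Shaziling. NDUFA13 made up 8.67% and 16.0%, so that its level was 0.282 of that of NDUFA12 in Yorkshire and 0.930 in Shaziling. NDUFA11 had 3.16% of the sum in Yorkshire and 7.74% in Shaziling, whereas NDUFA5 had 6.11% and 3.14% and NDUFA6 had 8.80% and 4.85%. NDUFA9 kept its share, with 11.5% and 11.4%. The genes of the membrane arm together accounted for 39.1% of the sum in Yorkshire and 56.5% in Shaziling.

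**Figure D2:**
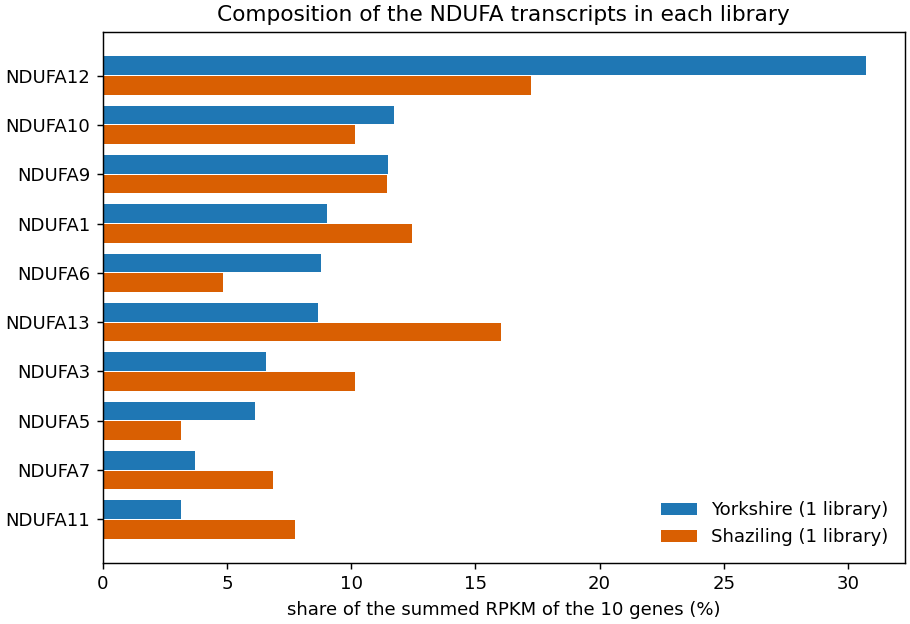
Share of each gene in the summed RPKM of the 10 NDUFA genes (horizontal axis, percent, starting at 0) in the Yorkshire and the Shaziling library, 1 library each. NDUFA12 has 30.7% in Yorkshire and 17.2% in Shaziling, and NDUFA13 has 8.67% and 16.0%.

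Levels of the 10 genes were closer to each other in Shaziling. The highest level was 9.75 times the lowest in Yorkshire (NDUFA12 and NDUFA11) and 5.49 times in Shaziling (NDUFA12 and NDUFA5). The level of NDUFA5 rests on a unigene that lies mostly beyond its coding length. In Yorkshire, NDUFA12 was 2.62 times as abundant as the next gene, NDUFA10, and in Shaziling 1.08 times as abundant as NDUFA13. By level, NDUFA13 was number 6 in Yorkshire and number 2 in Shaziling, NDUFA6 went from number 5 to number 9, and NDUFA5 from number 8 to number 10. Spearman's rho between the levels in both libraries was 0.65 over the 10 genes, which share these libraries. The summed level was 379.6 RPKM in Yorkshire and 554.6 RPKM in Shaziling, a ratio of 1.46. Read numbers were 14037 for the 10 genes in Yorkshire, or 0.0413% of the library size, and 14013 in Shaziling, or 0.0495%.

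The differences in ratio among the members were larger than counting error for most pairs. The ratio of NDUFA11 was 4.78 times that of NDUFA5, with an exact 95% confidence interval of 4.15 to 5.52. In 40 of the 45 pairs of members the interval did not include 1. These intervals hold for any scaling of the libraries and do not include the spread between pigs.

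The ratio of a single gene, in contrast, does depend on the scaling. A pair of mitochondrial unigenes, named by their protein match for subunits of NADH dehydrogenase, took 46.4% of the library size of Yorkshire and 11.8% of that of Shaziling, and reads on them lower the RPKM of all other genes of a library. The median log2 ratio was 0.35 for the 2363 unigenes that reached 10 RPKM in both libraries. It was -0.08 after rescaling to equal RPKM sums, -0.09 with TMM scaling, and -0.36 when the mitochondrial pair was taken out of the library sizes. In the last case 10.9% of all unigenes were called higher in Shaziling and 17.5% higher in Yorkshire, in place of 24.1% and 7.08%.

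Relative to the median of 0.35, the log2 ratio of NDUFA11 was higher by 1.49, that of NDUFA13 and NDUFA7 by 1.08, that of NDUFA3 by 0.82 and that of NDUFA1 by 0.66. NDUFA9 was higher by 0.19, and NDUFA10 stood at -0.02. NDUFA12, NDUFA6 and NDUFA5 stood at -0.64, -0.67 and -0.77. Under the 4 other scalings tried, NDUFA11 had ratios from 2.18 to 2.81. NDUFA13 and NDUFA7 had ratios from 1.64 to 2.11, NDUFA3 from 1.37 to 1.77 and NDUFA1 from 1.22 to 1.58, so these genes were higher in Shaziling throughout but below the fold change of 2 in some or all cases. NDUFA10 had a ratio below 1 under all 4, from 0.768 to 0.989, and NDUFA9 had ratios from 0.885 to 1.14. NDUFA5, NDUFA6 and NDUFA12 had ratios below 1 under every scaling tried. When the mitochondrial pair was taken out, their ratios were 0.456, 0.489 and 0.498, and these 3 genes were then called higher in Yorkshire.

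**Figure D3:**
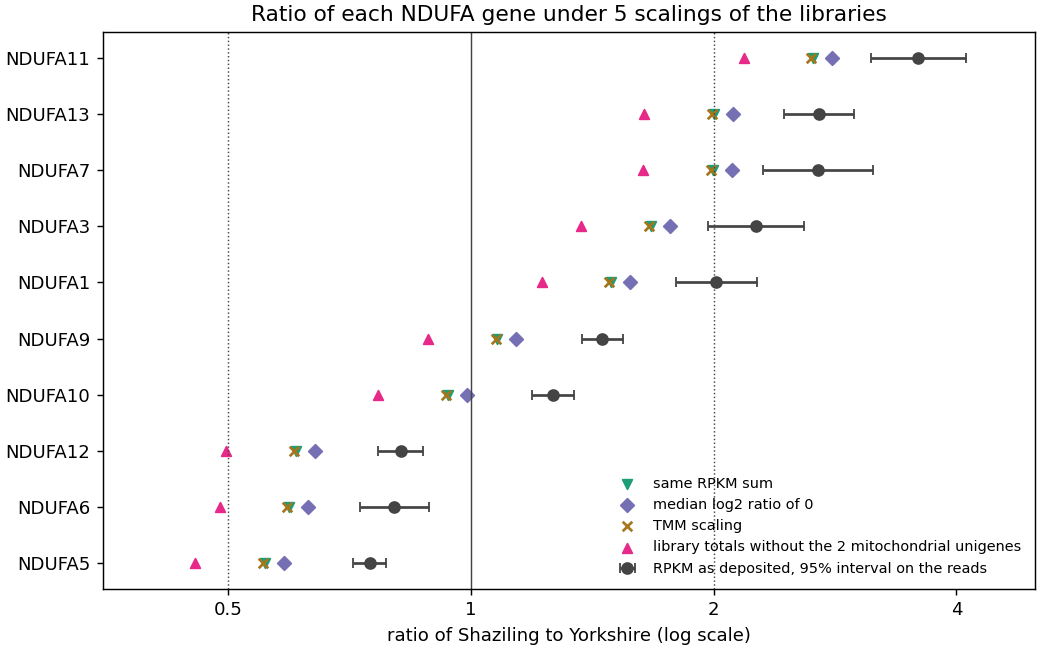
Ratio of Shaziling to Yorkshire for each NDUFA gene (horizontal axis, log scale) with RPKM as deposited (circles, bars are exact 95% confidence intervals on the reads) and under 4 other scalings of the libraries (other symbols), with lines at 0.5, 1 and 2. NDUFA5, NDUFA6 and NDUFA12 stay below 1 and NDUFA1, NDUFA3, NDUFA7, NDUFA11 and NDUFA13 above 1 under all 5 scalings, while NDUFA9 and NDUFA10 have symbols on both sides of 1.

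Most of the NDUFA genes lay outside the middle range of the ratios of abundant genes. For 640 pig genes that reached 10 RPKM in both libraries, the 10 NDUFA genes among them, the median ratio was 1.26. The quartiles were 0.967 and 1.79, and by definition as many of the 640 genes lie outside them as between them. The median ratio of the 10 NDUFA genes was 1.74, with 5 genes above the upper quartile, 3 below the lower quartile, and NDUFA9 and NDUFA10 between them. The genes that were called had short unigenes, from 384 bp (NDUFA3) to 723 bp (NDUFA11). Spearman's rho between unigene length and ratio was -0.59 over the 10 genes and -0.08 over the 2363 abundant unigenes. Among the latter, the median ratio was 1.32 for unigenes shorter than 600 bp, 1.56 from 600 bp to under 1000 bp, 1.32 from 1000 bp to under 2000 bp, and 1.21 from 2000 bp upwards. NDUFA12, with 590 bp, was a short unigene with a ratio below 1. The part of length in the ratios was not tested.

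Of 28 other nuclear genes listed by name under complex I, among them the 4 NDUFA genes named above as not matched, 10 were found by the same match. Of these, 6 were called higher in Shaziling and 0 higher in Yorkshire, and the median ratio was 2.56. Among the 1069 pig genes that reached 10 RPKM in 1 or both libraries, these shares were 35.2% and 3.27%. Among the core subunits, 2 of the 4 found were called. NDUFS8, an iron-sulfur protein, had 20.6 RPKM in Yorkshire and 78.9 RPKM in Shaziling, a ratio of 3.83. NDUFS1, another iron-sulfur protein, had 54.6 RPKM and 53.2 RPKM, a ratio of 0.975 (0.935 to 1.02). Among the accessory subunits, 4 of the 6 found were called. NDUFB2 of the membrane arm had the highest ratio, 4.60, with 7.58 RPKM in Yorkshire and 34.9 RPKM in Shaziling, and NDUFB5 of the same arm the lowest, 1.61, with 31.7 RPKM and 51.1 RPKM. NDUFA5, NDUFA6 and NDUFA12 had lower ratios than each of these 10 subunits.

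**Figure D4:**
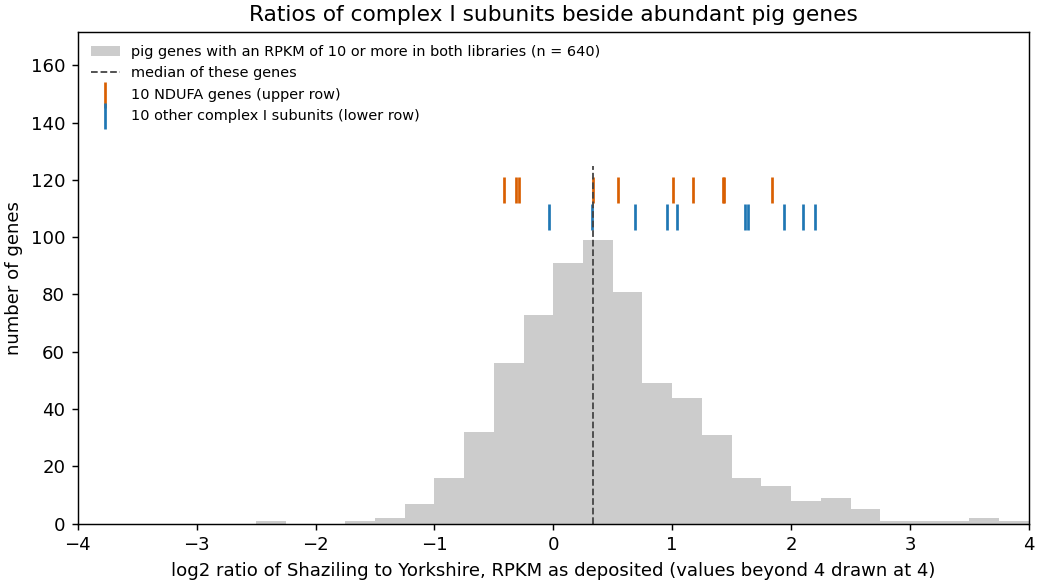
Log2 ratio of Shaziling to Yorkshire (horizontal axis, RPKM as deposited) for the 640 abundant pig genes (grey histogram, vertical axis, number of genes; values beyond 4 are drawn at 4), with the 10 NDUFA genes as ticks in the upper row and 10 other complex I subunits as ticks in the lower row. The dashed line marks the median of the 640 genes, and 3 NDUFA genes have ticks below 0.

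The rest of the respiratory chain was found in part. The counts below stand beside 35.2% called higher in Shaziling and 3.27% in Yorkshire among the 1069 pig genes given above. For complex II, which feeds electrons from succinate to ubiquinone, 2 of 4 genes were found and 0 were called. SDHB had a ratio of 0.559, with 180.0 RPKM in Yorkshire and 100.6 RPKM in Shaziling, and SDHC one of 1.33, with 28.5 RPKM and 37.8 RPKM. Of 9 nuclear genes of complex III, 0 were found. For cytochrome c oxidase, 4 of 13 genes were found and 3 were called higher in Shaziling. COX8B, named COX8H in the pig annotation, had a ratio of 12.8 (18.7 RPKM and 239.5 RPKM), and COX6A1 one of 1.80 (5.91 RPKM and 10.6 RPKM). For ATP synthase, 5 of 15 genes were found and 3 were called higher in Shaziling, with ratios from 1.01 for ATP5PO (256.2 RPKM and 259.6 RPKM) to 3.49 for ATP5MG (21.2 RPKM and 74.0 RPKM).

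The label of skeletal muscle was checked with markers. Calls among them stand beside 35.2% called higher in Shaziling among the 1069 pig genes given above, and 24.1% among all unigenes. Of 10 markers of skeletal muscle, 4 were found, with a summed level of 4787 RPKM in Yorkshire and 11592 RPKM in Shaziling, and 3 of them were called higher in Shaziling. Their ratios ranged from 1.57 for the myosin heavy chain MYH1 to 5.75 for a short unigene of the myosin light chain MYLPF. Of 7 markers of slow fibers, 1 was found, MYL3, with 149.8 RPKM and 642.1 RPKM. Markers of other cell types also differed between the libraries. Of 2 blood markers, 1 was found, HBB, with 18.5 RPKM in Yorkshire and 207.3 RPKM in Shaziling. Of 5 adipocyte markers, 2 were found, with a sum of 27.5 RPKM and 52.1 RPKM, and 1 of them, CIDEC, was called higher in Shaziling on 8 and 28 reads. The other, FABP4, had a ratio of 1.86 and was not called. The 4 of 5 fibroblast markers found had a sum of 721.2 RPKM and 685.1 RPKM, and 0 were called. Their ratios ranged from 0.505 for LUM (91.0 RPKM and 45.9 RPKM) to 1.24 for COL1A2 (104.5 RPKM and 129.3 RPKM). Of 3 endothelial markers, 2 were found, with a sum of 30.0 RPKM and 50.5 RPKM, and 1 of them, VWF, was called higher in Shaziling. Of 3 leukocyte markers, 0 were found. The part of these differences in the ratios of the NDUFA genes was not tested. In bulk muscle, fewer cells of a type and less RNA per cell cannot be told apart.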

How the data were processed

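Poly-A RNA of LM was used from 2 libraries, 1 per breed. Reads of both breeds were trimmed and assembled de novo by the authors (CLC Genomics Workbench, CAP3), and the unigenes were matched to the nr database with BlastX. The deposited counts are whole reads per unigene, not normalized. RPKM values, relative to unigene length in bp and library size, were computed by the authors with Qualimap and used as deposited. The submitters' processing notes name CASAVA 1.8, TopHat2 2.0.6 and the mouse build mm10, which the methods of the de novo assembly do not mention. The program that counted the reads is not given in the sources used here. On the listed unigenes lay 29537057 reads of Yorkshire (87.0% of the library size) and 20575805 of Shaziling (72.7%). A tab is missing between a pair of column names, so columns follow the order of the names. There were 0 unused columns of per-sample values.

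Protein accessions were matched, ignoring the version, to pig RefSeq genes (Sscrofa11.1), without coordinates. For each unigene the split of its reads was set against the library sizes in an exact binomial test (two-sided, Benjamini-Hochberg over all 65535 unigenes). The test was also run on simulated reads with counting error only. That run checks the code and not whether the test holds for these libraries. No replicate model could be fitted. Log2 fold changes used log2(RPKM + 1), which understates changes at low levels. TMM factors came from edgeR 4.0.16 (R 4.3.3), all else from Python 3.11.15 with scipy 1.17.1, pandas 2.3.3 and matplotlib 3.10.9. Named are the 10 NDUFA genes and, of each other list, the genes with the highest and lowest ratio that reached 10 RPKM in 1 or both libraries. CIDEC, NDUFS3, NDUFS6, NDUFV1, NDUFV3, the mitochondrial unigenes, NDUFA4L2, TFAM and the assembly factors were named after their values were seen. The NDUFA genes and all lists were chosen with earlier results of these data known. Other scalings, thresholds, pseudocounts, filters and representative unigenes were tried. Promoter motifs, which had been planned, were not analysed here.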

Additional observations from a re-analysis of the deposited data

How the results depend on the processing

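The median log2 fold change (pseudocount of 1) of the 10 genes was 0.76 as deposited, 0.34 after rescaling to the same RPKM sum, 0.41 with ratios centred on a median log2 ratio of 0, 0.33 with TMM scaling and 0.057 with library totals without the 2 mitochondrial unigenes. The number of genes (and of unigenes, which is the same) called higher in Shaziling was 5 as deposited, and 2, 3, 1 and 1 under these 4 scalings in the same order, beside 24.1% of all unigenes as deposited and 14.8%, 16.1%, 14.8% and 10.9% under the scalings. The number called higher in Yorkshire was 0, and 3 under the last. Beside it, 7.08% of all unigenes were called higher in Yorkshire as deposited, and 11.8%, 10.9%, 11.9% and 17.5% under the scalings. NDUFA10 changed sign under all 4, to -0.092, -0.015, -0.10 and -0.38, and NDUFA9 under the last, to -0.17. With a fold change of 3, 1 gene was called higher in Shaziling, and with the exact test on rounded RPKM values 2 were. Over all unigenes, 20430 calls became 16094 with a fold change of 3 and 577 on rounded RPKM values. They became 23591 with a fold change of 1.5, 10329 with a false discovery rate of 0.001 and 17108 among unigenes with an RPKM minimum of 1. These totals hold both directions together. The 5 and 0 genes called did not change with a fold change of 1.5, a false discovery rate of 0.001 or an RPKM minimum of 1. Pseudocounts of 0.1 and 5 changed the sign of 0 genes and gave medians of 0.77 and 0.70. Minimums of 10 RPKM in both libraries or of 300 bp kept all 10 genes and so the median. The choice of representative unigene had no effect, since each gene has 1. With 1 library per breed, no library could be left out and no paired analysis was possible.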

Other observations

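Complex I is built with the help of assembly factors that are not part of the finished enzyme. Of 17 such genes, 7 were found, all below 10 RPKM in both libraries, and 3 were called higher in Shaziling and 0 higher in Yorkshire. Among all unigenes, 24.1% and 7.08% were called in these directions. FOXRED1 had 1.32 RPKM in Yorkshire and 4.31 RPKM in Shaziling, and NDUFAF3 had 2.49 RPKM and 7.33 RPKM. TMEM186 rested on 6 and 21 reads. NDUFAF4 had 8.15 RPKM and 6.09 RPKM, a ratio of 0.748. NDUFA4L2, a paralog of NDUFA4, had 4.46 RPKM in Yorkshire and 7.19 RPKM in Shaziling. Its ratio was 1.61 (exact 95% confidence interval 1.32 to 1.98), and it was not called.

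Of 12 regulators of mitochondrial gene expression, 2 were found. ESRRA, a nuclear receptor that acts on genes of oxidative metabolism, had 355 Yorkshire reads (3.99 RPKM) and 1369 Shaziling reads (18.4 RPKM). It was called higher in Shaziling with a ratio of 4.63 (4.11 to 5.21). TFAM, which packages and transcribes mitochondrial DNA, had 8.25 RPKM and 9.96 RPKM, a ratio of 1.21.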
